A study of Mus musculus with 6 samples.

Results

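The genes described here encode the UDP-glucuronosyltransferases (UGTs) and the cytosolic sulfotransferases (SULTs) of the mouse. They were chosen by symbol, as every gene of the deposited table whose name begins with *Ugt1a*, *Ugt2a*, *Ugt2b*, *Ugt3a* or Sult followed by a family number. This gave 48 of 54446 genes, 21 of them UGTs and 27 SULTs, and 6 of the SULTs are annotated as pseudogenes. The libraries were made from the livers of 3 wild-type (WT) C57BL/6J mice and 3 *Fmo5*-/- mice bred on the same background, all male, 32 weeks of age and fed a standard chow diet. *Fmo5*-/- mice carry a knockout of the gene for flavin-containing monooxygenase 5, and the comparison asks how liver gene expression differs from WT. RNA was isolated from whole liver, so fewer cells of a type and less RNA per cell cannot be told apart. Nothing in the labels gives litters or cages for single animals, and p-values measure only the spread between these mice.

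Conjugation makes lipophilic compounds soluble enough to leave the body in bile or urine. UGTs sit in the membrane of the endoplasmic reticulum and move glucuronic acid from UDP-glucuronic acid onto drugs, phenols, steroids, bile acids and bilirubin. SULTs are cytosolic and move a sulfo group from PAPS (3′-phosphoadenosine-5′-phosphosulfate) onto many of the same compounds. The *Ugt1a* genes have an unusual build, in which each gene has a first exon and promoter of its own and all are spliced to the same downstream exons, whereas the *Ugt2b* genes are separate copies that lie side by side.

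This build sets what can be counted. Reads that lie in exons of more than 1 gene were not counted for any gene, so counts of the 9 *Ugt1a* genes come from bases that no other gene covers. These bases lie mostly in the first exon, except that *Ugt1a6a* and *Ugt1a7c* have 2142 and 1915 of them, more than that exon holds. Exons 2, 3 and 4, at 88215044-88215175, 88215795-88215882 and 88216138-88216357 on chromosome 1 (mm10, GENCODE vM21), are common to all 9. The last 30 bases of the first exon, in lower case, and the first 30 bases of the shared second exon, in capitals, are shown for 6 of the genes to mark where reads stop telling them apart (plus strand, 5′ to 3′).
Ugt1a1: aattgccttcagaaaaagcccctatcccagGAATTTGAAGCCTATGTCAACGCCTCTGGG
Ugt1a9: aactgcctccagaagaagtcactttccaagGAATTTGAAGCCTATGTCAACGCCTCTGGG
Ugt1a6a: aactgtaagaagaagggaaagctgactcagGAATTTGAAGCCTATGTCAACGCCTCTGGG
Ugt1a6b: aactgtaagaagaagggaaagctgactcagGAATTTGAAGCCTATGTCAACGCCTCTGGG
Ugt1a2: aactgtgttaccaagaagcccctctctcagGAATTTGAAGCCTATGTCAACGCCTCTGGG
Ugt1a5: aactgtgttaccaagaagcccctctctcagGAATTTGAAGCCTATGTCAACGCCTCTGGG
*Ugt1a6a* and *Ugt1a6b* end their first exons on the same letters, as do *Ugt1a2* and *Ugt1a5*. Of all stretches of 75 bases, the read length, in the transcripts of *Ugt1a6b*, 74.8% also occur in another gene, most of them in *Ugt1a6a*. In the other *Ugt1a* genes this share lay between 51.2% for *Ugt1a6a* and 78.8% for *Ugt1a1*. *Ugt1a1* keeps 385 of 2224 exon bases as its own, since most of the rest lies in the shared exons and a gene model listed at 0 in all libraries, *Gm20528*, covers part of the first exon too. Outside the *Ugt1a* genes, the share was 30.4% for *Ugt2b5*, 28.0% for *Ugt2b38*, 6.37% for *Ugt2b37* and 0% for *Ugt2b1*, *Ugt2b35* and *Ugt2b36*.

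The libraries held 44886286 to 52338675 counts on genes. The genotypes stood apart in 3 of the 4 kinds of reads that were not counted, and overlapped in reads in no gene. Reads mapping to several places made up 11.8% to 13.1% in WT libraries and 10.4% to 11.5% in *Fmo5*-/- libraries, and reads in more than 1 gene 3.52% to 3.62% and 3.72% to 3.98%. Unmapped reads made up 9.72% to 10.1% and 9.10% to 9.20%. *Ugt1a* genes lose reads of the first 2 kinds, and *Ugt2b5*, *Ugt2b38*, *Ugt2b37* and, least, *Ugt2b34* those mapping to several places. The part of these gaps in the results was not tested. The targeted gene, *Fmo5* (chromosome 3), was at 39807, 37405 and 30240 normalised counts in the WT mice and at 1071, 1102 and 1194 in the *Fmo5*-/- mice. It fell by 96.9% (95% confidence interval of the log2 fold change -5.30 to -4.69, adjusted p = 2.80e-07), so the genotype labels hold. Normalised counts are counts scaled by edgeR's TMM factors, fold changes are *Fmo5*-/- over WT with their standard errors (SE), and adjusted p comes from edgeR's quasi-likelihood test over all 16734 genes tested. The 5 hepatocyte markers, *Alb*, *Apoa1*, *Ttr*, *Serpina1a* and *Tat*, were abundant in all 6 libraries and none passed the test. Of 14 markers of enterocytes, kidney tubule and pancreas, *Kap* (kidney) and *Amy2a5* and *Cpa1* (pancreas) were at 0 in all libraries, and *Fabp2* and *Cela1* were not low. *Fabp2*, from the enterocyte list, was at 4100 to 5383 normalised counts in WT mice and 2666 to 3444 in *Fmo5*-/- mice (adjusted p = 0.0564 in edgeR and 0.000845 in DESeq2). The paper reports it among liver genes of fatty acid transport, as lower in *Fmo5*-/- mice. The enterocyte markers *Alpi*, *Lct* and *Sis* reached at most 4.66. *Vil1*, the fifth gene of that list, was at 7.81 to 10.2 in WT mice and 10.8 to 16.8 in *Fmo5*-/- mice (adjusted p = 0.380). *Cela1*, from the pancreas list, was at 1342 to 2166 in all mice, and *Lrp2*, from the kidney list, at 80.5 to 149 in WT mice and 43.8 to 64.8 in *Fmo5*-/- mice (adjusted p = 0.0711 in edgeR and 0.00434 in DESeq2). The part of these markers in the results was not tested.

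Of the 48 genes, 25 had enough counts to be tested, 18 UGTs and 7 SULTs, and 17 had a mean of 500 normalised counts or more over the 6 libraries. A further 12 had no count in any library. *Ugt2b37* was the only gene of the 25 that passed an adjusted p of 0.05, and it was lower in *Fmo5*-/- mice. Over all genes tested 1.37% passed in either direction, 0.693% lower and 0.675% higher. The fold change pointed to lower expression in *Fmo5*-/- mice in 22 of the 25, beside 49.2% of all genes tested. Among genes with a mean of 500 or more it did so in 16 of 17, beside 63.9% of all such genes. The median log2 fold change was -0.30 for the 25 genes, -0.33 for the UGTs and -0.23 for the SULTs, and 0.0058 for all genes tested (-0.062 for those with a mean of 500 or more).

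**Figure D1:**
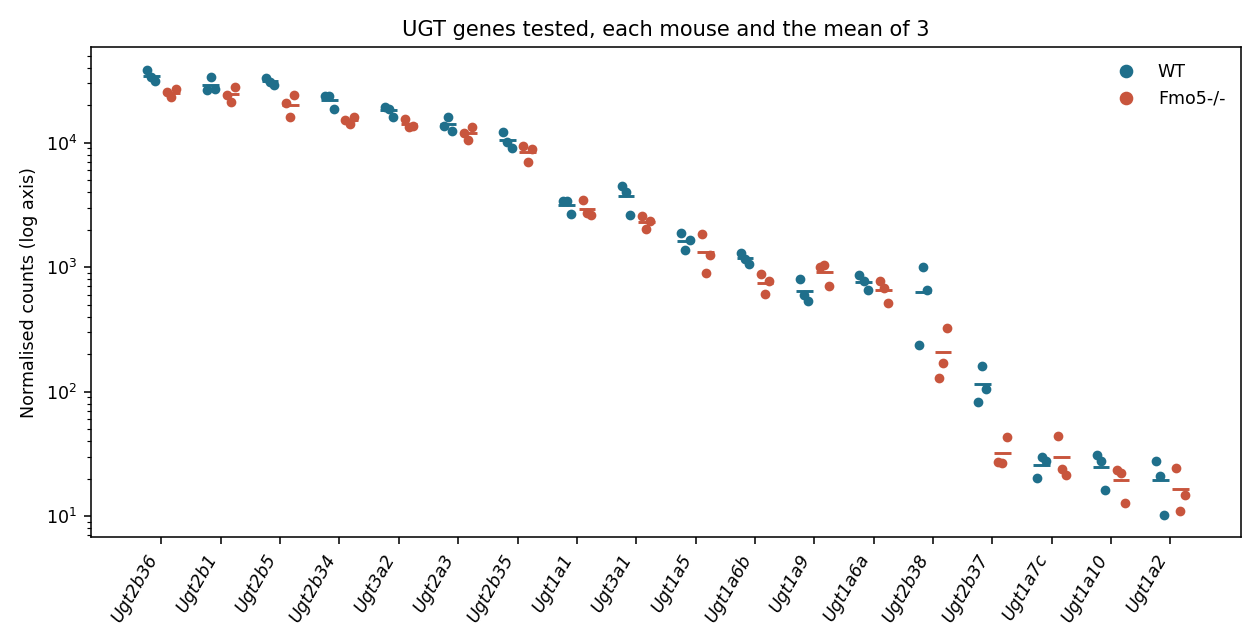
Normalised counts (log axis) of the 18 UGT genes tested, 1 point per mouse for 3 WT (blue) and 3 *Fmo5*-/- (red) mice, with bars at the means. The points of the genotypes stand apart for *Ugt2b36*, *Ugt2b5*, *Ugt2b34*, *Ugt3a2*, *Ugt3a1*, *Ugt1a6b* and *Ugt2b37*, each lower in *Fmo5*-/- mice, and mix for the other 11.

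In 9 of the 25 genes all 3 *Fmo5*-/- mice lay below all 3 WT mice, which held for 13.5% of all genes tested and 21.9% of those with a mean of 500 or more. These were *Ugt1a6b*, *Ugt2b5*, *Ugt2b34*, *Ugt2b36*, *Ugt2b37*, *Ugt3a1*, *Ugt3a2*, *Sult2a7* and *Sult2a8*. In no gene of the 25 did all *Fmo5*-/- mice lie above all WT mice, beside 13.9% of all genes tested. At an unadjusted p under 0.05, 9 genes passed, 8 lower and 1 higher, beside 21.8% of all genes tested. DESeq2, used on the same counts, called 8 of the 25, all lower, beside 8.96% of the genes it gave an adjusted p in either direction and 4.21% lower. The 8 were *Ugt1a6b*, *Ugt2b5*, *Ugt2b34*, *Ugt2b36*, *Ugt2b37*, *Ugt3a1*, *Ugt3a2* and *Sult2a7*. With no filter on low counts, edgeR called 9 of 19 UGTs, 8 of them lower, and 3 of 17 SULTs, all lower (*Sult1d1*, *Sult2a7* and *Sult1e1*, whose counts lie mostly in 1 WT mouse), beside 5.82% of all genes in either direction and 2.62% lower.

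**Figure D2:**
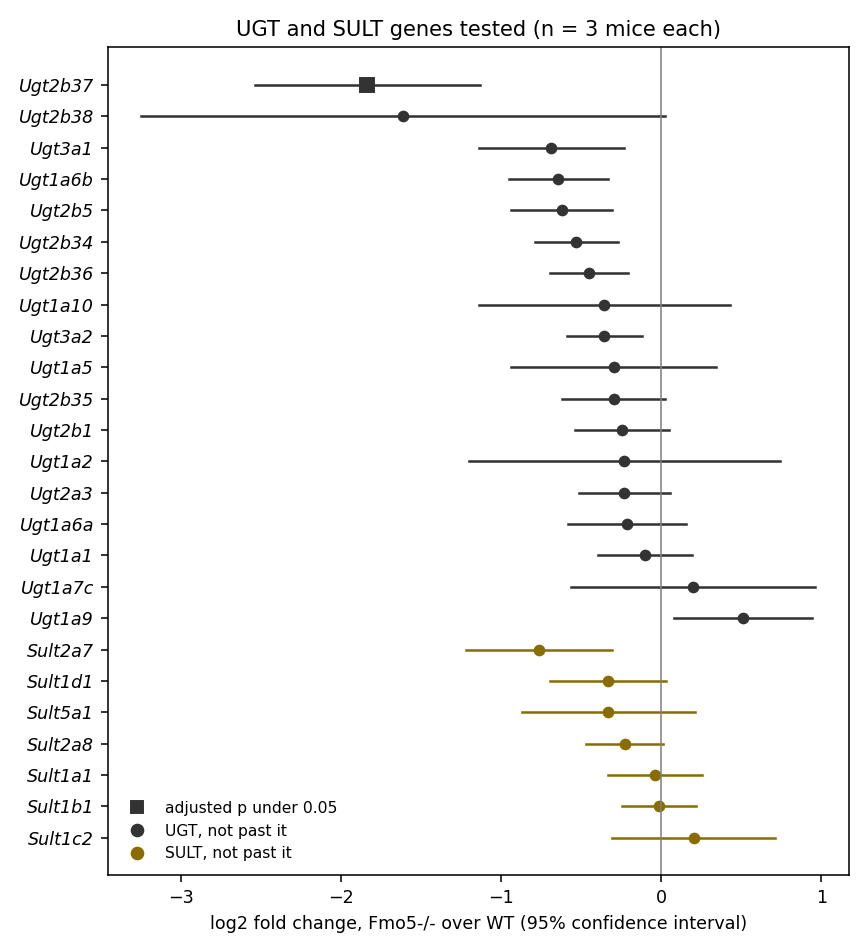
Log2 fold changes, *Fmo5*-/- over WT, with 95% confidence intervals for the 25 genes tested, UGTs above and SULTs below (n = 3 mice each). *Ugt2b37* (square) passed the adjusted threshold, 22 points lie left of 0, and the interval of *Ugt1a9* lies right of 0.

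The *Ugt2* genes lie together on chromosome 5. Their enzymes handle steroids, bile acids and many drugs, and in WT liver they made up most UGT counts, with 74.2% to 75.3% in the 7 *Ugt2b* genes. All 7 *Ugt2b* genes were tested, and the fold change was below 0 in each, from -1.84 to -0.24 on the log2 scale with a median of -0.53. All *Fmo5*-/- mice lay below all WT mice in 4 of them, beside the 13.5% of all genes tested given above.

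*Ugt2b37* (chromosome 5, 87240493-87254804) was among the less abundant *Ugt2b* genes. It held 82.6, 160 and 104 normalised counts in the WT mice and 27.0, 26.6 and 43.2 in the *Fmo5*-/- mice. The highest *Fmo5*-/- mouse lay well below the lowest WT mouse. Means were 115.5 ± 39.7 and 32.3 ± 9.46 (SD, n = 3 each), and *Ugt2b37* fell by 1.84 on the log2 scale (SE 0.31, 95% confidence interval -2.54 to -1.14, adjusted p = 0.0339). Leaving out 1 mouse at a time kept the call in 2 of 6 fits, where adjusted p ran from 0.0118 to 0.123 and the log2 fold change from -2.10 to -1.53. On the reads of 1 strand alone the log2 fold change was -1.90 and the adjusted p 0.0695.

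*Ugt2b38* (87409942-87424203) had the next largest fold change, but its mice were widely spread. Its normalised counts were 238, 996 and 660 in WT mice and 128, 170 and 323 in *Fmo5*-/- mice. The lowest WT mouse lay below the highest *Fmo5*-/- mouse, so the genotypes overlapped. The log2 fold change was -1.61 ± 0.64 (SE, interval -3.25 to 0.02, adjusted p = 0.235). In both *Ugt2b37* and *Ugt2b38*, WT mouse 1 was the lowest WT mouse, WT mouse 2 the highest, and *Fmo5*-/- mouse 3 the highest of its genotype.

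*Ugt2b5* and *Ugt2b36* were the most abundant UGT genes per length. Levels between genes are given as normalised counts per kilobase of exon that no other gene shares, and in WT mice these were 16741 ± 1092 for *Ugt2b5* and 16651 ± 1871 for *Ugt2b36*, which differed by less than their SDs. The value for *Ugt2b5* makes no allowance for stretches it shares with other genes, whose reads were not counted, and *Ugt2b36* has no such stretch. Among the other *Ugt2* genes, *Ugt2b1* was at 11225 ± 1512, *Ugt2a3* at 6627 ± 846, *Ugt2b34* at 5089 ± 677 and *Ugt2b35* at 3096 ± 467. *Ugt2b38*, at 334 ± 201, and *Ugt2b37*, at 61.0 ± 21.0, were far lower.

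*Ugt2b5* (87124960-87140318) held 33229, 30900 and 29187 normalised counts in WT mice and 20620, 16098 and 23889 in *Fmo5*-/- mice. All *Fmo5*-/- mice lay below all WT mice, and *Fmo5*-/- mouse 2 was the lowest of all. The log2 fold change was -0.62 ± 0.14 (SE, adjusted p = 0.0626), and it passed with an adjusted p of 0.0217 when *Fmo5*-/- mouse 3 was left out. *Ugt2b36* (87065927-87092555) held 38507, 33383 and 30962 in WT mice and 25373, 23094 and 26715 in *Fmo5*-/- mice. These too did not overlap, with a log2 fold change of -0.45 ± 0.11 (SE, adjusted p = 0.0711).

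*Ugt2b34* (86889767-86906937) held 23484, 23775 and 18576 normalised counts in WT mice and 15148, 14184 and 16171 in *Fmo5*-/- mice. WT mouse 3 was the nearest to the *Fmo5*-/- mice, but still above them. Its log2 fold change was -0.53 ± 0.11 (SE, adjusted p = 0.0564). Without WT mouse 3, edgeR called *Ugt2b34* and *Ugt3a1* among the UGTs and not *Ugt2b37*, whose adjusted p was then 0.0562.

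The remaining abundant *Ugt2* genes overlapped between the genotypes. *Ugt2b1* (86916638-86926530) held 26305, 33358 and 26986 normalised counts in WT mice and 24180, 21226 and 27737 in *Fmo5*-/- mice, a log2 fold change of -0.24 (adjusted p = 0.318). *Ugt2b35* (87000860-87013275) held 12099, 10096 and 9006 in WT mice and 9461, 7016 and 8921 in *Fmo5*-/- mice, a log2 fold change of -0.30 (adjusted p = 0.264). In both, 2 *Fmo5*-/- mice lay below all WT mice and the third lay among them. *Ugt2a3* (87324972-87337195) held 13695, 15964 and 12430 in WT mice and 12001, 10404 and 13435 in *Fmo5*-/- mice, a log2 fold change of -0.23 (adjusted p = 0.323). The other members of the *Ugt2a* group, *Ugt2a1* and *Ugt2a2*, which are known from olfactory tissue, had no count in any library. They keep only 30 and 140 exon bases that no other gene covers, so a count of 0 says little about them.

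The start regions of these genes share sequence. The 120 bases before the RefSeq start of *Ugt2b5*, *Ugt2b37* and *Ugt2b38*, whose fold changes ranged from -1.84 to -0.62, are shown with those of *Ugt2b36* (GRCm38.p6, chromosome 5, minus strand, 5′ to 3′). Capitals mark a run of 62 bases that is identical in the first 3 genes, and in *Ugt2b36* a run of 24 bases that it has in common with *Ugt2b5* and *Ugt2b37*. Intervals are 87140341-87140460 for *Ugt2b5*, 87254789-87254908 for *Ugt2b37*, 87424204-87424323 for *Ugt2b38* and 87092556-87092675 for *Ugt2b36*.
Ugt2b5: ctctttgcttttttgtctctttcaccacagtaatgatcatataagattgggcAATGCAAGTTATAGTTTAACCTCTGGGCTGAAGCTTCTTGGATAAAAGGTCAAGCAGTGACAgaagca
Ugt2b37: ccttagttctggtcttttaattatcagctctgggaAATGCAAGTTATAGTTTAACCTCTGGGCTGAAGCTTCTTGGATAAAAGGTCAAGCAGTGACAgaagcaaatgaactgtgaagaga
Ugt2b38: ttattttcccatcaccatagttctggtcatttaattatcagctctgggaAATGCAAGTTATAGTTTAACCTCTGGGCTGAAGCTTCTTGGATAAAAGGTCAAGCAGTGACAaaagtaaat
Ugt2b36: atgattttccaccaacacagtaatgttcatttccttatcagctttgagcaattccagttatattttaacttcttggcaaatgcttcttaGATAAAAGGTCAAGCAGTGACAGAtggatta
The run of 62 bases occurs in 3 of 32851 RefSeq promoters when the bases before the start are searched, those of *Ugt2b5*, *Ugt2b37* and *Ugt2b38*. It ends 7 bases before the start in *Ugt2b5*, 24 in *Ugt2b37* and 10 in *Ugt2b38*. The core of the antioxidant response element, TGACNNNGC, was searched on both strands in the 250 bases before the start of 39 promoters that matched 36 of the 48 genes. It was found in 0, beside 10.2% of all promoters. The genes without an entry were *Ugt1a6b*, *Ugt3a2*, *Sult2a1*, *Sult2a2*, *Sult2a7*, *Sult4a1* and the 6 pseudogenes. These are matches of letters only.

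*Ugt3a* enzymes differ from other UGTs in that they use sugars other than glucuronic acid. Both lie on chromosome 15 and were lower in all *Fmo5*-/- mice than in any WT mouse. *Ugt3a2* (9335550-9370955) held 19363, 18756 and 16187 normalised counts in WT mice and 15463, 13289 and 13660 in *Fmo5*-/- mice, and *Ugt3a1* (9276888-9315032) held 4520, 4037 and 2636 and then 2561, 2024 and 2366. WT mouse 3 was the lowest WT mouse for both and came close to the highest *Fmo5*-/- mouse for *Ugt3a1*. Log2 fold changes were -0.36 ± 0.10 (SE, adjusted p = 0.0990) for *Ugt3a2* and -0.69 ± 0.19 (SE, adjusted p = 0.107) for *Ugt3a1*. *Ugt3a1* passed with an adjusted p of 0.0207 when WT mouse 3 was left out. Per kilobase, *Ugt3a2* was at 5836 ± 543 and *Ugt3a1* at 1397 ± 367 in WT mice, so their levels stood apart.

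The 9 *Ugt1a* genes lie on chromosome 1 and took 4.13% to 6.03% of UGT counts. *Ugt1a1*, the enzyme that conjugates bilirubin, was the most abundant of them per length, at 8196 ± 1040 normalised counts per kilobase in WT mice, and stood below *Ugt2b5*, *Ugt2b36* and *Ugt2b1*. Divided by its whole exon length, shared exons included, the same counts gave 1419, which is below *Ugt2a3*, *Ugt3a2*, *Ugt2b34* and *Ugt2b35*. It held 3376, 3397 and 2693 normalised counts in WT mice and 3444, 2738 and 2634 in *Fmo5*-/- mice. The genotypes overlapped throughout, and the log2 fold change was -0.10 (95% confidence interval -0.39 to 0.19, adjusted p = 0.693).

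*Ugt1a6a* and *Ugt1a6b* both encode enzymes of small planar phenols. *Ugt1a6b* (88103252-88219003) held 1293, 1163 and 1062 normalised counts in WT mice and 872, 606 and 773 in *Fmo5*-/- mice, with no overlap. Its log2 fold change was -0.64 ± 0.14 (SE, interval -0.95 to -0.34, adjusted p = 0.0554). *Ugt1a6a* (88134809-88218997) held 865, 767 and 653 in WT mice and 779, 676 and 512 in *Fmo5*-/- mice, which overlapped, at a log2 fold change of -0.22 (interval -0.58 to 0.15, adjusted p = 0.485). The intervals of this pair overlap, the difference between them was not tested, and reads that fit both copies were not counted for either.

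*Ugt1a9* (88070800-88218997), an enzyme of bulky phenols, was the only UGT with a mean of 500 or more whose fold change was above 0, and remained so in every setting tried. It held 795, 600 and 534 normalised counts in WT mice and 994, 1044 and 707 in *Fmo5*-/- mice. *Fmo5*-/- mice 1 and 2 lay above all WT mice and mouse 3 lay among them. The log2 fold change was 0.51 ± 0.19 (SE, interval 0.08 to 0.94, adjusted p = 0.171). *Ugt1a5* (88166012-88218997) held 1874, 1371 and 1652 in WT mice and 1835, 889 and 1262 in *Fmo5*-/- mice, a log2 fold change of -0.30 (adjusted p = 0.572). That fold change ran from -0.60 without *Fmo5*-/- mouse 1 to -0.076 without *Fmo5*-/- mouse 2. *Ugt1a7c*, *Ugt1a10* and *Ugt1a2* had means between 16.7 and 29.7 normalised counts in either genotype and log2 fold changes from -0.36 to 0.20, with adjusted p of 0.594 to 0.802. *Ugt1a8* had 4 counts in all and was not tested.

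The make-up of the *Ugt1a* counts was compared as well. *Ugt1a6b* took 15.6%, 15.8% and 16.0% of them in WT mice and 10.9%, 10.1% and 13.0% in *Fmo5*-/- mice. *Ugt1a9* took 9.60%, 8.14% and 8.03% in WT mice and 12.4%, 17.4% and 11.9% in *Fmo5*-/- mice. Neither gene's shares overlapped between the genotypes, in opposite directions, whereas those of *Ugt1a1*, from 40.5% to 46.0%, did. Shares within a family depend on each other, and an exact permutation test of 3 against 3 mice cannot give a two-sided p below 0.1.

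**Figure D3:**
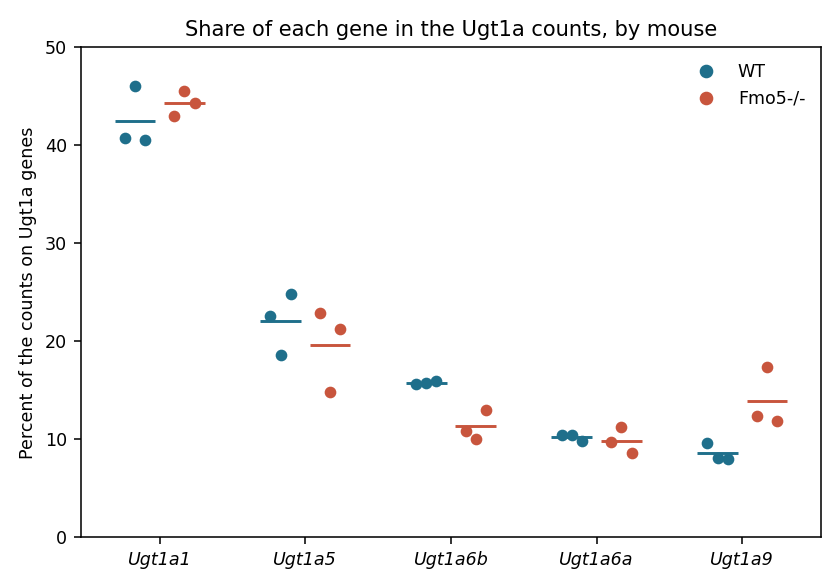
Percent of the counts on *Ugt1a* genes held by each of the 5 abundant ones, 1 point per mouse, WT blue and *Fmo5*-/- red, with bars at the means of 3. *Ugt1a6b* lies lower and *Ugt1a9* higher in all *Fmo5*-/- mice, and the points of *Ugt1a1*, *Ugt1a5* and *Ugt1a6a* overlap.

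Among SULTs, no gene of 7 tested passed the adjusted threshold in edgeR. At an unadjusted p under 0.05 there was 1, *Sult2a7*, which DESeq2 called. *Sult2a8* was the most abundant, at 12027 ± 669 normalised counts per kilobase in WT mice, and took 63.6% to 71.5% of all SULT counts. It is a liver enzyme that sulfates bile acids. *Sult2a8* (chromosome 7, 14410686-14446769) held 38163, 42034 and 38292 normalised counts in WT mice and 31825, 31087 and 38162 in *Fmo5*-/- mice. *Fmo5*-/- mouse 3 came within counting error of the lowest WT mouse, and both others lay lower. The log2 fold change was -0.23 ± 0.11 (SE, interval -0.47 to 0.01, adjusted p = 0.250).

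*Sult2a7*, its neighbour on chromosome 7 (14465051-14494230), was far less abundant, at 77.5 ± 12.1 normalised counts per kilobase in WT mice. It held 104, 112 and 81.8 normalised counts in WT mice and 60.6, 52.3 and 61.9 in *Fmo5*-/- mice. All *Fmo5*-/- mice lay below all WT mice. The log2 fold change was -0.76 ± 0.20 (SE, interval -1.22 to -0.31, adjusted p = 0.0818), and DESeq2 gave an adjusted p of 0.0309.

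Of the *Sult1* genes, 4 were tested, and all overlapped between the genotypes. *Sult1a1* (chromosome 7, 126672865-126676432), which sulfates small phenols, held 12403, 8938 and 11684 normalised counts in WT mice and 11704, 10369 and 10045 in *Fmo5*-/- mice, a log2 fold change of -0.04 (interval -0.33 to 0.25, adjusted p = 0.889). *Sult1b1* (chromosome 5, 87513339-87538195), known for thyroid hormones, held 1314, 1361 and 1155 in WT mice and 1130, 1261 and 1403 in *Fmo5*-/- mice, a log2 fold change of -0.01 (interval -0.25 to 0.22, adjusted p = 0.954). In both genes the direction of the fold change reversed under some settings. *Sult1d1* (chromosome 5, 87554645-87569027), an enzyme of catecholamines in the mouse, held 5858, 5473 and 4112 in WT mice and 4820, 3446 and 3991 in *Fmo5*-/- mice, a log2 fold change of -0.33 (interval -0.70 to 0.03, adjusted p = 0.269). The less abundant *Sult5a1* and *Sult1c2* had log2 fold changes of -0.33 and 0.20, with adjusted p of 0.460 and 0.652. When 1 mouse was left out, these fold changes ran from -0.52 to -0.070 and from 0.014 to 0.36.

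**Figure D4:**
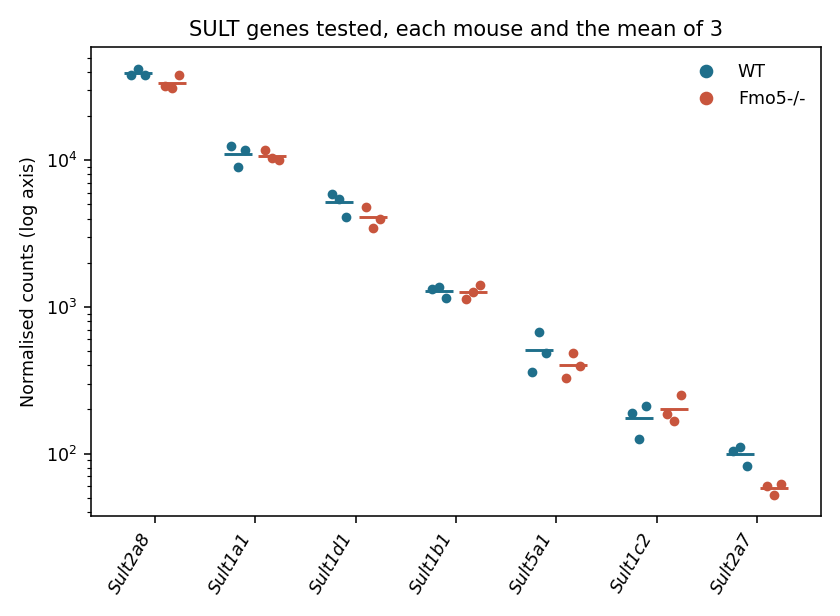
Normalised counts (log axis) of the 7 SULT genes tested, 1 point per mouse for 3 WT (blue) and 3 *Fmo5*-/- (red) mice, with bars at the means. The genotypes stand apart for *Sult2a7* and, narrowly, *Sult2a8*, and overlap for the other 5.

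The remaining 20 SULTs were at or near 0. *Sult1e1*, which sulfates oestrogens, had 2, 26 and 4 raw counts in the WT libraries and 1, 3 and 4 in the *Fmo5*-/- libraries, so that 1 WT mouse held most of them. *Sult2b1*, *Sult4a1* and *Sult6b1* had 0 to 6 counts in any library. *Sult2a1* and *Sult2a5* had none and *Sult2a2*, *Sult2a3*, *Sult2a4* and *Sult2a6* at most 2, but 47.2% of the 75-base stretches of *Sult2a2*, 25.6% of *Sult2a5* and 19.5% of *Sult2a1* occur in another gene too. *Sult3a1* and *Sult6b2* had at most 1 count in any library, and *Sult1c1*, *Sult3a2* and the 6 pseudogenes (*Sult1c2-ps1*, *Sult1c2-ps2* and *Sult2a-ps1* to *Sult2a-ps4*) had none. Reads from stretches found in several genes map to several places and were not counted. A count of 0 in a library allows up to 3 counts.

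Taking the families as wholes, UGT genes held 0.353%, 0.357% and 0.300% of the counts on genes in WT mice and 0.273%, 0.252% and 0.294% in *Fmo5*-/- mice. SULT genes held 0.115%, 0.117% and 0.110% in WT mice and 0.103%, 0.104% and 0.115% in *Fmo5*-/- mice. The UGT shares did not overlap, with WT mouse 3 close to *Fmo5*-/- mouse 3, and the SULT shares did. Some mice were low in many of the genes. Among the 17 genes with a mean of 500 or more, WT mouse 3 was the lowest WT mouse in 13 and the highest in 0, and *Fmo5*-/- mouse 2 was the lowest *Fmo5*-/- mouse in 12.

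The genes that supply and export conjugates were read in the same fit, from lists of known members, beside the 1.37% of all genes tested that passed in edgeR and 8.96% in DESeq2, in either direction. An unadjusted p under 0.05 was held by 21.8% of all genes tested (10.2% lower), and a fold change below 0 by 49.2%, or 63.9% at a mean of 500 or more. Of 4 genes that supply UDP-glucuronic acid, 4 had lower means, a median log2 fold change of -0.29. Of these 0 passed in edgeR, 3 had an unadjusted p under 0.05 and 1 passed in DESeq2, *Ugdh*. *Ugdh*, whose enzyme makes UDP-glucuronic acid, was at 12945, 10364 and 10436 normalised counts in WT mice and 8325, 7650 and 7945 in *Fmo5*-/- mice, a log2 difference of -0.50 (adjusted p = 0.0555 in edgeR and 0.00102 in DESeq2). Of 8 genes of PAPS supply and sulfate transport, 1 passed in edgeR, 3 had an unadjusted p under 0.05 and 2 passed in DESeq2, all lower (median -0.13). The gene that passed in edgeR was *Papss1*, a PAPS synthase, at 1150, 1270 and 1202 normalised counts in WT mice and 924, 896 and 885 in *Fmo5*-/- mice. Its log2 fold change was -0.42 ± 0.08 (SE, adjusted p = 0.0431). *Papss2*, the other PAPS synthase and at 7705 ± 322 normalised counts in WT mice, had a log2 fold change of 0.09 (adjusted p = 0.691). Of 4 exporters of conjugates (median -0.20) 0 passed in edgeR, 1 had an unadjusted p under 0.05, and that gene, *Abcg2*, passed in DESeq2 (adjusted p = 0.0510 in edgeR and 0.00102 in DESeq2) and, lower, in edgeR with either other scaling. Of 6 deconjugating enzymes (median -0.09) 0 passed with either tool, and 1 had an unadjusted p under 0.05.

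Among 12 other conjugating enzymes, 1 passed in edgeR, *Tpmt*, a thiopurine methyltransferase, which fell by 0.41 on the log2 scale (adjusted p = 0.0468), and the median was -0.10. At an unadjusted p under 0.05 there were 5 of the 12, and DESeq2 called 4, *Tpmt*, *Baat*, *Glyat* and *Mgst1*, all of them lower. Of 13 transcription factors of the liver and of foreign compound sensing, 0 passed in edgeR, 2 had an unadjusted p under 0.05 and 1 passed in DESeq2 (median -0.10). The gene that DESeq2 called was *Nfe2l2*, which encodes NRF2, the factor that binds antioxidant response elements. It was at 4394, 4009 and 4569 normalised counts in WT mice and 3727, 3373 and 3474 in *Fmo5*-/- mice, a log2 difference of -0.29 (adjusted p = 0.0939 in edgeR and 0.0330 in DESeq2). Of 12 genes known as targets of foreign compound receptors, 6 had log2 fold changes above 0 and 6 below. With edgeR and with DESeq2 2 passed, *Cyp1a2* and *Cyp2c55*, both higher. At an unadjusted p under 0.05 there were 3, these 2 and *Gsta1*, which was lower (log2 fold change -1.09, adjusted p = 0.143 in edgeR). *Cyp1a2*, a classical target of the aryl hydrocarbon receptor, was at 30709 ± 1541 normalised counts in WT mice and 48272 ± 3707 in *Fmo5*-/- mice, a log2 difference of 0.65 (adjusted p = 0.0208). *Cyp2c55* was at 477 ± 42.2 and 834 ± 129 (log2 fold change 0.81, adjusted p = 0.0275). *Cyp1a1* and *Nqo1*, on the same list, had log2 fold changes of -0.25 and -0.01 (adjusted p = 0.658 and 0.980). Of 8 male-biased liver genes 7 had lower means (median -0.18) and 0 passed in edgeR. Only *Mup20* among them had an unadjusted p under 0.05 (log2 fold change -0.98, adjusted p = 0.122 in edgeR), and DESeq2 called it (adjusted p = 0.0487). Of 5 female-biased genes tested 3 had higher means, and 0 passed with either tool or had an unadjusted p under 0.05. Leaving out 1 mouse at a time, *Cyp1a2* was called in 4 of 6 fits, *Cyp2c55* and *Clec4f* in 2, and *Papss1* and *Tpmt* in 0. Without a filter on low counts, edgeR called 5 genes of the lists that it and DESeq2 did not call otherwise, *Gsta1*, *Ppara*, *Ugp2* and *Bpnt1*, lower, and the pericentral marker *Axin2*, higher.

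Markers of other cell types were read in the same fit. All 6 Kupffer cell markers had higher means in *Fmo5*-/- mice (median log2 fold change 1.05), and 1 passed in edgeR, *Clec4f* (log2 fold change 0.70, adjusted p = 0.0275), and 5 in DESeq2, *Clec4f*, *Cd5l*, *Vsig4*, *Timd4* and *Marco*. edgeR called all 6 when *Fmo5*-/- mouse 3 was left out. It called none of them without WT mouse 1, WT mouse 2, *Fmo5*-/- mouse 1 or *Fmo5*-/- mouse 2, and only *Clec4f* without WT mouse 3. In 5 of the 6, *Marco* being the exception, the genotypes did not overlap, beside 13.9% of all genes tested that were higher in every *Fmo5*-/- mouse. Their summed level was 144 to 173 CPM (counts scaled to library size) in WT mice and 247 to 458 in *Fmo5*-/- mice. *Marco* had the largest fold change of that list, 2.24 (adjusted p = 0.212), with *Fmo5*-/- mouse 3 inside the WT range. Of 5 T and B cell markers 0 passed in edgeR, 2 had an unadjusted p under 0.05 and 2 passed in DESeq2, *Cd8a* and *Cd3e*, and *Cd8a* had the largest fold change, 3.39 (adjusted p = 0.0883), with 86.6, 321 and 61.9 normalised counts in the *Fmo5*-/- mice, so that mouse 2 held most of them. edgeR called *Cd8a* when *Fmo5*-/- mouse 2 or *Fmo5*-/- mouse 3 was left out. Of 7 stellate cell markers 6 had higher means, and 0 passed with either tool, with 1 at an unadjusted p under 0.05. Of 6 pericentral hepatocyte markers 5 had higher means, and 1 passed with either tool, *Cyp1a2*. Of 6 periportal markers 4 had lower means, with 0 called in edgeR, 2 at an unadjusted p under 0.05 and 2 called in DESeq2, *Cyp2f2* (log2 fold change -0.49) and *Hsd17b13* (-0.32). Of 6 endothelial and 7 cholangiocyte markers 0 passed with either tool, with 2 and 1 at an unadjusted p under 0.05. The summed hepatocyte markers overlapped, at 97355 to 127721 CPM in WT mice and 112231 to 130118 in *Fmo5*-/- mice. The part of these shifts in the lower UGT values was not tested.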

How the data were processed

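RNA was sequenced from 6 livers, 3 WT and 3 *Fmo5*-/- mice, grouped by the genotype label. Per the paper's methods, the authors clipped adapters from single reads of 75 bases, mapped them to mm10 with STAR and counted reads per gene with STAR. The submitters' processing notes name bcl2fastq and FastQC. The deposited counts per gene, for both strands together, were analysed here. Both strands had nearly equal counts (other columns of the deposited tables), so antisense reads cannot be told apart. The authors' comparison table also holds signal, the deposited counts divided by 1 size factor per library, which was used to match identifiers and check the counts. Its fold changes, standard errors, Wald statistics, p and adjusted p were not used. The annotation release is not given in the sources used here.

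Of 67753857 to 75632821 reads per library, 66.2% to 69.2% were on genes. Rows that name no gene stayed out of the tests: 9.10% to 10.1% unmapped, 10.4% to 13.1% multimapping, 6.86% to 8.63% in no gene and 3.52% to 3.98% in several. Intervals cover the spread between mice, and limits for a count of 0 cover counting error only.

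Tests ran in R 4.3.3 with edgeR 4.0.16 (filterByExpr with a minimum count of 10, TMM, robust quasi-likelihood test, two-sided, Benjamini-Hochberg adjustment over 16734 genes, threshold 0.05). Standard errors are the log2 fold change over the square root of F. The script was tested on simulated data. Alternatives were DESeq2 1.42.0, RLE factors, TMM without the 20 most abundant genes, no filter, a mean of 500 before the fit, 1 strand, and leaving out each library. Positions were from GENCODE vM21, which held 48 of 48 identifiers, 47 of them in the same version, and promoters from RefSeq. Named were *Fmo5*, every UGT or SULT gene with a mean of 500 or an adjusted p under 0.05, with values for each mouse also at an adjusted p under 0.1, the other members by name and range, and from the context lists genes with an adjusted p under 0.05 and the 2 largest fold changes. The values of *Ugt2b38* in each mouse were added for its fold change, after they were seen. Also named after their values were seen were *Ugdh*, *Papss2*, *Abcg2*, *Baat*, *Glyat*, *Mgst1*, *Nfe2l2*, *Cyp1a1*, *Nqo1*, *Mup20*, genes called without a filter, markers of other tissues and cell types and genes with few counts. The members and lists were chosen with earlier results of these data known.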

Additional observations from a re-analysis of the deposited data

How the results depend on the processing

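The number of UGT genes called was 1 by edgeR, 7 with DESeq2, 9 without a filter on low counts (8 lower, 1 higher, *Ugt1a9*), 0 with a mean of 500 before the fit, where *Ugt2b37* was no longer tested, and 0 on 1 strand. It ran from 0 to 2 when 1 library was left out, and was 1 with either other scaling. For SULT genes it was 0 by edgeR, 1 with DESeq2, 3 without a filter and 0 to 0 when 1 library was left out. Over all genes edgeR called 229, DESeq2 1395 and edgeR without a filter 1989, and between 31 (without *Fmo5*-/- mouse 1) and 763 (without *Fmo5*-/- mouse 3) when 1 library was left out. Genes called in the context lists numbered 5, and 6 with either other scaling, which added *Abcg2*. They numbered 23 with DESeq2 and 25 without a filter. On 1 strand they numbered 4, without *Tpmt*, and with a mean of 500 they numbered 3, without *Papss1* and *Tpmt*. Leaving out 1 library gave 0 to 14. The WT level of *Ugt1a1* was 8196 per kilobase of unshared exon and 1419 over the whole exon length. The log2 fold change reversed for *Sult1a1* (0.022) and *Sult1b1* (0.052) with a mean of 500 before the fit and for *Ugt1a10* on 1 strand (0.067). When 1 library was left out, it ran from -0.169 to 0.059 for *Sult1a1*, -0.097 to 0.060 for *Sult1b1*, -0.61 to 0.10 for *Ugt1a2* and -0.19 to 0.38 for *Ugt1a7c*. The cause was not tested. No other UGT or SULT gene tested changed direction under the settings tried, and both other scalings left all 25 tested genes on their side of the threshold. No paired analysis was run, because the livers came from different mice and the labels give no pairing between WT and *Fmo5*-/- mice. With 3 mice each, differences under the intervals given were not detectable, and genes with few counts are the least certain.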
